A study of Mus musculus with 23 samples.

Results

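The comparison set 6 mouse uterine horns injected with a hydrogel alone (HG, horns 12 to 17) against 5 horns injected with saline (PBS, horns 7 to 11). The 11 horns were chosen by the group name in the library titles, out of 23 libraries in the series, and each horn carries the number its title gives it. All 11 came from female C57BL/6 mice whose uterus was injured with ethanol (70 degrees), injected 4 days later and sampled 2 weeks after the injection. The hydrogel is called hybrid and endometrial-derived in the title of the series, and no organoids were in either group. The other 12 libraries were 6 SHAM horns and 6 horns given the hydrogel with human endometrial organoids, and they entered no value below except in an alternative fit. The labels name no transgene in these mice and give no age. The endometrium was pressed out of each horn and poly(A) RNA was sequenced, 1 library a horn. The design text gives 21 mice for tissue, fewer than the 23 horns, so some mice gave both horns. The labels do not say which horns share a mouse, and p-values therefore measure the spread between horns.

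The endometrium is a sheet of luminal and glandular epithelium over a stroma of fibroblasts, vessels and immune cells, and it lies on the smooth muscle of the myometrium. Its stroma makes collagens and growth factors such as IGF1, which act on the epithelium, and ovarian steroids drive both layers through their receptors. Biomaterials placed in injured tissue are commonly asked whether they alter matrix, vessels, inflammation and steroid response, and the genes below are ordered by those roles.

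Total counts ranged from 8259351 to 14902952 per horn, with a median of 12551429. Levels are given as log2 CPM, in which each count is divided by its library's effective size after a prior count of 2 is added, and on which a gene with no counts sits at -2.66 or a little above it. The 13 mitochondrially encoded transcripts took 1.78% to 9.26% of counts, and the ranges of the groups overlapped. Among the 25 pairs of horns within a group the closest, HG horns 13 and 16, still had a chi-square of 20 per degree of freedom, so no library was counted as a copy of another. The labels do not say whether HG horns 13 and 16 came from the same mouse, so they may not be independent. The first principal component of the 500 most variable genes held 60.2% of their variance. PBS horns 8 and 9 lay at 75.8 and 77.1 on it, PBS horn 11 at 34.4 and HG horn 15 at 22.4, and the other 7 horns between -39.6 and -10.5. PBS horns 8 and 9 therefore stand apart. Values without them are given for the lists that rest on them and for some of the genes.

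No gene differed between hydrogel and saline at an adjusted p under 0.05 (edgeR's quasi-likelihood test with Benjamini-Hochberg adjustment, 0 of 16617 genes, 0%). The smallest adjusted p was 0.864, so every gene named below missed the threshold, and its values are given as measured. At an unadjusted p under 0.05 there were 387 genes higher in HG (2.33%) and 260 lower (1.56%), together 3.89%. If no gene differed, a share of about 0.05 of all genes would lie under that p. DESeq2 called 0 genes as well, with 1076 at an unadjusted p under 0.05. The fitted log2 fold was above 0 for 54.9% of all genes, and its median over all genes was 0.04. The number of horns and the spread among them set what could be called here, and a p that misses the threshold does not show that the groups were alike.

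For the scores of stroma, endothelium and smooth muscle, the SD within the saline group was larger than the difference between the group means, while epithelial genes were high in every horn. A list score here averages the log2 CPM of the tested members of a list, horn by horn. The uterine epithelium score, over 17 keratin, claudin and epithelial transcription factor genes, was 8.47, 8.84, 9.11, 8.86 and 9.00 in PBS horns 7 to 11, and 7.75, 8.76 and 8.95 at the lowest, median and highest of the HG horns. The labelled tissue was thus rich in epithelial transcripts in all 11 horns. The endometrial stroma score, over 14 fibroblast genes, was 5.58, 1.06, 0.96, 6.15 and 3.49 in PBS horns 7 to 11, against 3.50, 5.95 and 6.88 in the HG horns. PBS horns 8 and 9 lay far below all other horns, PBS horn 11 and HG horn 15 were next, and the groups overlapped.

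The same horns were low for the vessels and the muscle. The endothelium score, over 15 genes, was 5.88, 0.31, -0.05, 5.99 and 1.58 in the PBS horns and 3.31, 5.40 and 6.26 in the HG horns. Of those 15 genes, 9 were under 1 CPM in PBS horn 8, 11 in PBS horn 9, 3 in PBS horn 11 and 0 in every other horn. The smooth muscle score, over 18 genes, was 4.72, -0.24, 0.58, 6.22 and 2.46 in the PBS horns and 2.72, 4.84 and 7.18 in the HG horns. Acta2, smooth muscle actin, was at 7.77, -0.99, 2.79, 9.11 and 5.10 in the PBS horns and at 4.65, 7.73 and 10.30 in the HG horns. In bulk tissue, fewer cells of a type and less RNA per cell cannot be told apart, and neither can the tissue taken from a horn and the state of that tissue.

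With those horns in the saline group, most non-epithelial lists had medians above 0 in HG. For each count of list members here and below, the shares over all genes are to be set beside it. These were 54.9% with a fold above 0, and at an unadjusted p under 0.05 2.33% higher and 1.56% lower. The lists and their members were chosen with earlier results of these data known, so a count above these shares is no test of a list. Of the endometrial stroma genes 13 of 14 had a fold above 0 with a median log2 fold of 1.33, of the smooth muscle genes 18 of 18 with a median of 1.30, and of the endothelial genes 14 of 15 with a median of 0.65. None of these members had an unadjusted p under 0.05. Without PBS horns 8 and 9 the medians were 0.60 for stroma, 0.57 for smooth muscle and -0.05 for endothelium, and 6 of 15 endothelial genes had a fold above 0. Leaving out PBS horn 10 instead, the horn with the highest stroma, collagen and muscle scores of its group, gave 2.54 for stroma and 2.57 for smooth muscle. Leaving out HG horn 16 gave 0.61 for smooth muscle. Pecam1, the endothelial adhesion molecule CD31, had a fitted log2 fold of 0.49 (SE 1.18) that became -0.25 without PBS horns 8 and 9.

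Epithelial genes had small folds of the other sign. The epithelial score was 8.85 ± 0.24 (SD, n = 5) in PBS and 8.55 ± 0.47 (SD, n = 6) in HG, and 14 of 17 members had a fold below 0, with a median of -0.21. Esrp1, an epithelial splicing regulator, had a fitted log2 fold of -0.32 (SE 0.14) and lay at 7.57, 7.91, 7.83, 7.56 and 7.74 in the PBS horns and at 7.06, 7.42 and 7.66 in the HG horns. 4 of the 6 HG horns lay below every PBS horn for Esrp1. Spint1, an inhibitor of epithelial surface proteases, had a fold of -0.38 (SE 0.17), and 3 HG horns lay below every PBS horn. It was -0.15 without PBS horns 8 and 9. Krt8, the keratin of simple epithelia, had a fold of -0.41 (SE 0.26), or -0.14 without those horns. Epcam, an epithelial adhesion molecule, had a fold of -0.16 (SE 0.28). With the stroma score as a covariate, a fit added after the data had been seen, the folds were -0.17 for Esrp1, -0.09 for Spint1 and -0.03 for Krt8.

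HOX genes of the uterus, which give the tract its regional identity and are expressed in its stroma, share members with the stroma list: 3 of the 6 tested, Hoxa10, Hoxa11 and Hoxd10, enter the stroma score. All 6 tested members had a fold above 0 with a median of 1.95, which was 1.24 without PBS horns 8 and 9. With the stroma score as a covariate it was -0.04, a value that the shared members fix in part and that is no check of this list. Hoxa10, needed for decidualization, was at 5.26, 1.11, 0.55, 5.64 and 2.54 in the PBS horns and at 2.42, 5.19 and 8.04 in the HG horns. HG horns 14 and 17, at 8.04 and 7.28, lay above every saline horn and the rest overlapped. Hoxa11 had the same fitted log2 fold as Hoxa10, 2.13 (SE 1.22 for Hoxa11 and 1.17 for Hoxa10), and for each it was 1.43 without PBS horns 8 and 9. Without HG horn 14 it was 1.32 for Hoxa10 and 1.38 for Hoxa11.

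Matrix genes are the first class a hydrogel might be asked about. All 7 fibrillar collagen genes had a fold above 0, with a median of 1.52 and none at an unadjusted p under 0.05. Without PBS horns 8 and 9 the median was 0.81, with the stroma score as a covariate 0.36, and without PBS horn 10 it was 3.65. Col3a1, collagen III, was at 7.56, 1.58, 1.24, 10.25 and 6.54 in the PBS horns and at 6.03, 10.11 and 10.50 in the HG horns. HG horns 13, 14 and 16 lay above the highest saline horn, by 0.25 at most. Col1a1, collagen I, had a fitted log2 fold of 1.22 (SE 1.40), which was 0.49 without PBS horns 8 and 9, 3.72 without PBS horn 10 and -0.13 with the stroma score as a covariate.

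Among matrix glycoproteins and proteoglycans, 14 of 17 genes had a fold above 0 with a median of 1.18, and 2 of the 17 were at an unadjusted p under 0.05. These were Vcan and Tnc. Vcan, the provisional matrix proteoglycan versican, was at 1.75, 1.01, -0.30, 3.70 and 1.29 in the PBS horns and at 0.30, 4.71 and 6.75 in the HG horns. HG horns 13, 14, 16 and 17 lay above every saline horn, and HG horn 15 lay among the lowest. Vcan had a fitted log2 fold of 3.00 (SE 1.08), 2.44 without PBS horns 8 and 9 and 1.09 with the stroma score as a covariate. Tnc, tenascin C, a glycoprotein of healing tissue, had a fold of 2.32 (SE 0.96), 1.65 without those horns and 0.94 with the covariate. Pcolce, which helps the protease that trims procollagen, had a fold of 1.26 (SE 0.42) and 4 HG horns above every saline horn.

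Some genes of the basement membrane, matrix protease and TGF-beta lists had folds below 0. Lama3, a laminin chain of the epithelial basement membrane, was at 6.06, 8.22, 7.16, 6.92 and 7.81 in the PBS horns and at 6.18, 6.70 and 6.96 in the HG horns. The lowest horn of all was PBS horn 7, so the groups overlapped, and the fitted log2 fold was -0.76 (SE 0.32), or -0.23 with the stroma score as a covariate. Mmp14, a membrane-bound collagenase, had a fold of -0.50 (SE 0.18), and 4 HG horns lay below every saline horn. Tgfbr1, the type I receptor of TGF-beta, had a fold of -0.51 (SE 0.20) with 4 HG horns below every saline horn, while its ligand Tgfb1 had a fold of 0.30 (SE 0.41) that became -0.20 without PBS horns 8 and 9. The TGF-beta axis as a whole had 12 of 17 genes above 0 with a median of 0.35, and -0.03 without those horns.

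Igf1, the growth factor through which stroma acts on epithelium, nearly parted the groups. It was at 5.74, 2.35, 0.84, 6.63 and 3.95 in PBS horns 7 to 11, and at 6.85, 7.66, 8.60, 4.00, 7.83 and 7.33 in HG horns 12 to 17. 5 of 6 hydrogel horns lay above every saline horn, and HG horn 15, at 4.00, lay among the saline horns. That gave a fitted log2 fold of 2.41 (SE 0.99), with a range of 2.04 to 3.30 when each horn was left out in turn. It was 1.72 without PBS horns 8 and 9 and 1.20 with the stroma score as a covariate.

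In every tested gene of the IGF axis, Igf1 included, the groups overlapped. Of its 14 tested genes 10 had a fold above 0, with a median of 0.85 that was 0.22 without PBS horns 8 and 9, and 2 were at an unadjusted p under 0.05, Igf1 and Irs2. Irs2, an adaptor of the insulin and IGF receptors, was at 3.27, -1.75, -1.05, 1.15 and 1.45 in the PBS horns and at 1.76, 2.41 and 7.17 in the HG horns. Its fitted log2 fold of 3.25 (SE 1.38) was 0.73 without HG horn 12, the horn at 7.17. The receptor Igf1r had a fold of -0.40 (SE 0.27), and 3 HG horns lay below every saline horn. Igfbp4, an IGF binding protein, had a fold of 0.63 (SE 0.52).

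Sfrp2, a secreted WNT modulator of fibroblasts, resembled Igf1 in its horns. It was at 1.96, -1.45, -0.63, 1.75 and 1.21 in the PBS horns and at -0.03, 2.75 and 5.93 in the HG horns, with 5 HG horns above every saline horn and HG horn 15 the exception. Its fitted log2 fold was 3.01 (SE 1.06), 1.77 without HG horn 14 and 0.83 with the stroma score as a covariate. The WNT pathway list as a whole had 11 of 22 genes above 0, with a median of 0.00.

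Angiogenic factors all had folds above 0, 14 of 14, where 54.9% of all genes did, with a median of 0.79. Of these, 3 were higher at an unadjusted p under 0.05, where 2.33% of all genes were. Without PBS horns 8 and 9 the median was 0.55, with 10 of 14 above 0. Pgf, placental growth factor, was at 0.11, 0.91, -2.06, 0.30 and -0.76 in the PBS horns and at -0.45, 1.38 and 4.60 in the HG horns. Its fitted log2 fold of 2.70 (SE 1.04) was 1.08 without HG horn 14. Angpt1, the agonist of the endothelial receptor TIE2, had a fold of 1.97 (SE 0.80), or 1.34 without HG horn 12. Angptl4, a lipase inhibitor made by fat and by hypoxic cells, had a fold of 3.08 (SE 1.22) that was 1.13 without HG horn 12. Vegfa, the main endothelial growth factor, had a fold of 0.41 (SE 0.58), and was 0.00 without HG horn 12. Without PBS horns 8 and 9 the fold of Vegfa was 0.84, and with the stroma score as a covariate 0.98.

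Immediate early genes encode transcription factors and feedback regulators that are switched on within minutes of a stimulus, tissue handling included. Of 21 tested, 20 had a fold above 0, with a median of 0.98, and 5 were higher at an unadjusted p under 0.05, where 2.33% of all genes were. The median was 0.56 without PBS horns 8 and 9, with 17 of 21 above 0, and 0.57 with the stroma score as a covariate. The score of the list was 6.26, 3.42, 4.01, 5.38 and 5.54 in PBS horns 7 to 11 and 5.29, 6.31 and 6.99 in the HG horns. PBS horns 8 and 9 were again the lowest, and PBS horns 7, 10 and 11 lay among the HG horns. The labels give no time between death and RNA extraction, and its part in these values was not tested.

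The bases upstream of 4 of these genes are shown because such genes are known for CRE and serum response sites close to their start. The stretches are the 150 bases before the RefSeq transcription start on build GRCm38.p6, another build than that of the counts, 5′ to 3′ along the gene. Capitals mark the CRE core TGACG, on either strand, in Fosb (chr7:19310046-19310195, minus strand), Fos (chr12:85473740-85473889, plus strand) and Nr4a1 (chr15:101266696-101266845, plus strand), and the CArG box in Zfp36 (chr7:28379229-28379378, minus strand).
Fosb: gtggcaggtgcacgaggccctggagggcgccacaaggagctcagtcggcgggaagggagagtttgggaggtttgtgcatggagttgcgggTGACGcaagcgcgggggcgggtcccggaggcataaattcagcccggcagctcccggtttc
Fos: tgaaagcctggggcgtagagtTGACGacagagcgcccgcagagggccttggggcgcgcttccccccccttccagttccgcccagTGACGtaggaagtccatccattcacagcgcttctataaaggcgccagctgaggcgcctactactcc
Nr4a1: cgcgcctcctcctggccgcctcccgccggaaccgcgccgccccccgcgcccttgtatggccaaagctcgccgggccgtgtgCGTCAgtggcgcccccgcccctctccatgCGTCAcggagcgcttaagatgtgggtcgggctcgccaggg
Zfp36: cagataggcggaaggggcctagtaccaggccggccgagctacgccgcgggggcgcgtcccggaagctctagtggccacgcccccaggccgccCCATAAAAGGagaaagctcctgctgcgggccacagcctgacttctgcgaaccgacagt
In the full windows of 300 bases in the RefSeq table, from 250 before to 50 after the start, TGACG on either strand was found in 13 of the 18 immediate early genes that the table holds and in 23.0% of the 27025 genes it holds. The CArG box was found in 2 of the 18 and in 1.81% of genes, and the full site TGACGTCA, which holds that core, in 3 of the 18 and in 2.03%. A match describes these letters only, and no binding was measured.

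Fosb, the FOS family member whose TGACG begins 60 bases before the start, was at 5.83, 0.80, 2.21, 4.69 and 5.17 in the PBS horns and at 4.69, 7.00 and 8.08 in the HG horns. 5 HG horns lay above every saline horn, and HG horn 17, at 4.69, lay among them. The fitted log2 fold was 2.44 (SE 0.83), 1.76 without PBS horns 8 and 9 and 2.12 with the stroma score as a covariate. Fos itself had a fold of 1.37 (SE 0.81), or 0.69 without PBS horns 8 and 9, with 3 HG horns above every saline horn. Ier2, a small nuclear regulator, was at 6.72, 5.58, 5.72, 6.78 and 6.11 in the PBS horns and at 6.21, 6.95 and 8.39 in the HG horns. Its fold of 0.98 (SE 0.39) was 0.56 without HG horn 12, the highest. Zfp36, which brings about decay of cytokine mRNAs, had a fold of 1.86 (SE 0.77), or 1.08 without HG horn 12. Nr4a3, an orphan nuclear receptor, had a fold of 2.80 (SE 1.16) that was 0.73 without HG horn 14, which lay at 5.55. Its relative Nr4a1 had a fold of 0.86 (SE 0.72), or 0.22 without PBS horns 8 and 9.

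The chemokine score was highest in HG horn 12, at 4.59. Of 18 chemokine genes 13 had a fold above 0, with a median of 0.90, or 0.20 without PBS horns 8 and 9, and 3 were at an unadjusted p under 0.05. Cxcl10, the interferon-induced T cell attractant, was at 1.94, -0.81, 0.63, 0.07 and 2.51 in the PBS horns and at 6.05, 3.42, 2.16, 2.64, 2.53 and 1.93 in HG horns 12 to 17. HG horn 12 stood far above the others. Cxcl10 had a fitted log2 fold of 2.75 (SE 0.97), which was 1.32 without HG horn 12. The neutrophil attractant Cxcl1 had a fold of 3.77 (SE 1.41), or 1.82 without HG horn 12, where it was at 7.37. The monocyte attractant Ccl2 had a fold of 2.80 (SE 1.00), or 2.27 without HG horn 12. Interferon response genes had no such shift, with 9 of 22 above 0 and a median of -0.14.

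Cytokines split by gene. Il6 was at -0.19, -1.75, -2.66, -1.23 and -0.19 in the PBS horns, near the floor, and at 4.28 in HG horn 12, with an HG median of 0.25. The reads of Il6 were 11, 2, 0, 3 and 10 in the PBS horns. They were 230, 14, 14, 36, 4 and 10 in HG horns 12 to 17. Its fitted log2 fold, 3.48 (SE 1.16), compares mean counts and so leans on HG horn 12. HG horns 13, 14 and 17, at 14, 14 and 10 reads, were close to PBS horns 7 and 11, at 11 and 10. Il18, an epithelial cytokine of the IL-1 family, was at 2.76, 2.80, 3.05, 2.60 and 3.11 in the PBS horns and at 1.75, 2.30 and 2.88 in the HG horns, so that 5 of 6 HG horns lay below every saline horn. The fold of Il18 was -0.55 (SE 0.23), and -0.52 without PBS horns 8 and 9. Il1b had a fitted fold of -1.54 (SE 1.07), set by PBS horn 7 at 5.82, and -0.26 without that horn. The mean log2 CPM of Il1b was 2.17 in PBS and 2.28 in HG, of opposite sign to the fold, because a fitted fold compares mean counts.

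Immune cell lists differed in their pattern. The macrophage and monocyte list had 12 of 15 genes above 0 and a median of 0.51, or -0.11 without PBS horns 8 and 9. Its marker Adgre1, the F4/80 antigen, was at 2.95 ± 1.82 (SD, n = 5) in PBS and 4.33 ± 0.67 (SD, n = 6) in HG, with a fitted log2 fold of 0.82 (SE 0.66) that was 0.18 without PBS horns 8 and 9. Of 6 tested neutrophil genes 5 had a fold below 0, with a median of -1.03, or -0.25 without PBS horn 7, the horn with the highest neutrophil score of all 11, 5.94. With limma the median was 0.12, of the opposite sign, and the mean scores were 3.49 in PBS and 3.41 in HG. Ltf, 1 of the 6 genes, is also on the estrogen-responsive list, so the score cannot be read as neutrophil content alone. It averaged 12.44 in PBS and 10.43 in HG, where S100a8 averaged 1.64 and 1.53, and it weighs heavily on the score. The neutrophil protein S100a8 had a fold of -1.12 (SE 0.90), or -0.33 without PBS horn 7.

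Of 15 genes of T and NK cells 11 were tested, and all 11 had a fold above 0, where 54.9% of all genes did. Their median was 1.25, and 3 were higher at an unadjusted p under 0.05, where 2.33% of all genes were. Cd3e, Cd3d and Cd8a were not tested, so mainly Cd4 and Trac stand for T cells. The median of the list was 0.85 without PBS horns 8 and 9 and 0.51 with the stroma score as a covariate. Trac had 17, 1, 1, 12 and 14 reads in the PBS horns and 19, 12, 6, 20, 12 and 5 in HG horns 12 to 17. Cd4 had its highest count, 38, in PBS horn 7. Prf1, perforin, the pore-forming protein of killer cells, was at 0.35, -1.20, -2.06, 0.49 and -0.08 in the PBS horns and at 1.00, -0.44, 3.52, 0.20, 0.90 and 2.14 in HG horns 12 to 17. HG horns 14 and 17 were the highest for Prf1, and also for Gzmb, a killer cell protease, at 5.21 and 3.01, and for the NK receptor chain Klrd1, at 3.43 and 2.98. The fitted log2 folds were 2.29 (SE 0.85) for Prf1, 2.36 (SE 1.04) for Gzmb and 1.55 (SE 0.64) for Klrd1, and without HG horn 14 they were 1.39, 0.70 and 1.12.

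Steroid response is how the endometrium follows the cycle. Esr1, the estrogen receptor, was at 8.53 ± 0.23 (SD, n = 5) in PBS and 8.44 ± 0.20 (SD, n = 6) in HG, with a fitted log2 fold of -0.09 (SE 0.15). Pgr, the progesterone receptor, had a fold of -0.81 (SE 0.44), or -0.28 without PBS horn 8, which lay at 10.14, and -0.07 without PBS horns 8 and 9. The estrogen-responsive list had 5 of 11 folds above 0 with a median of -0.23. The progesterone-responsive list had 8 of 12 with a median of 0.48, which was -0.31 without HG horn 14. HG horn 14 had the lowest estrogen-responsive score, 5.16, with PBS horn 8 next at 5.32. It also had the highest progesterone-responsive score, 6.78, with HG horn 17 next at 5.97. Genes of the glucocorticoid-type steroid target list, which progesterone also induces in part, had 11 of 14 folds above 0, with a median of 0.53 and 4 at an unadjusted p under 0.05. Without PBS horns 8 and 9 the median was 0.73, and without HG horn 14 it was 0.09.

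Zbtb16, Maob and Klf15 of this list were highest in HG horns 12 and 14, and Angptl4, given above, in HG horns 12 and 13. Zbtb16, a transcription factor induced by these steroids in stroma, was at 1.72, 0.25, -2.06, -0.35 and -0.76 in the PBS horns and at 4.72, 1.74, 5.34, 1.95, 0.80 and 1.72 in HG horns 12 to 17. The fitted log2 fold was 3.59 (SE 1.09), and it ranged from 2.79 to 4.55 when each horn was left out in turn. Maob, monoamine oxidase B, was at 2.48, -0.13, -2.06, 2.03 and -1.17 in the PBS horns and at -0.03, 3.68 and 7.36 in the HG horns, with a fold of 4.15 (SE 1.44), or 2.53 without HG horn 14. Klf15, a metabolic transcription factor, had a fold of 2.11 (SE 0.87), or 1.40 without HG horn 12. Among well known targets of the same receptors, Fkbp5 had a fold of 0.53 (SE 0.42), with its highest count, 1022, in HG horn 14. Tsc22d3 had a fold of -0.19 (SE 0.41), with its highest count, 1724, in PBS horn 8. Klf9, Per1, Mt1 and Mt2 of the list also had their highest counts in HG horns 12 and 14. Sgk1, Cebpd, Pdk4 and Errfi1 did not share this.

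Lif and Msx2 of the implantation list divided the hydrogel horns among themselves. Lif, the cytokine that implantation requires in the mouse, was at 3.47, 2.77, 2.84, 4.04 and 4.35 in the PBS horns and at 2.44, 6.65, 6.38, 3.30, 6.65 and 3.40 in HG horns 12 to 17. HG horns 13, 14 and 16 lay more than 2 above every saline horn, and the other HG horns lay among or below them. For Lif the fitted log2 fold was 2.07 (SE 0.80). Msx2, an epithelial transcription factor that falls at implantation, was at 5.53, 6.39, 5.89, 5.72 and 5.06 in the PBS horns, and HG horns 13, 14 and 16 were again set apart, at 3.56, 3.34 and 3.28. Its fold was -1.17 (SE 0.45). Msx1 of the same list did not set HG horn 14 apart, with 7572 reads there and 1657 and 668 in HG horns 13 and 16. The implantation list as a whole had 7 of 15 genes above 0 and a median of -0.04.

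HG horns 13 and 16 differed from horn 14 in other genes. Ihh, the progesterone-induced epithelial signal, was at 6.49, 8.43, 6.80, 2.78 and 3.27 in the PBS horns and at 6.89, -0.75, 8.07, 6.10, -0.93 and 6.97 in HG horns 12 to 17. Lgr5, a WNT-dependent epithelial receptor, was at 0.40 and 0.80 in HG horns 13 and 16, and between 4.32 and 6.61 in every other horn. Mki67, a proliferation marker, was at 8.66 and 8.73 in those horns and at 8.26 or below elsewhere. The labels give no estrous stage at collection, and its part in these values was not tested. The cell cycle list had 19 of 25 genes above 0 with a median of 0.16, and Mki67 had a fold of 0.39 (SE 0.61). Foxa2, the transcription factor that glands require, had a fold of 0.84 (SE 0.69).

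Fat was present in some horns of both groups. Adipoq, the adipocyte hormone adiponectin, was at 5.50, -2.66, -2.06, -2.66 and -1.42 in the PBS horns and at 10.23, 6.61, -2.66, 3.28, 2.86 and -2.66 in HG horns 12 to 17. The adipocyte list was above 0 in 9 of 9 tested members with a median of 4.35. Leaving out HG horn 12 gave a median of 0.22 over the 5 members that still passed the filter on low counts. Leaving out PBS horn 7 gave 10.17, a fitted value that rests on saline horns near the floor. HG horn 12 was also the highest horn for Irs2, Angptl4, Cxcl10, Cxcl1 and Il6, and the part of fat in their values was not tested.

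Whether the groups part can also be read gene by gene without a fit. In 14 genes every HG horn lay above every PBS horn (0.0843% of those tested), and in 13 every HG horn lay below (0.0782%). With 6 against 5 horns and this many genes, some part the groups in this way by chance alone. How many would do so was not computed, so these genes are described and carry no test. Their number is not shown to exceed what chance would give. Of the 27, 15 had an established gene name and 12 were gene models known by a number. The gaps between the groups were narrow, at most 0.12 log2 CPM, from unrounded levels, for a gene with an established name.

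Among the higher genes, Gin1, a gene derived from a retrotransposon integrase, was at 3.11, 3.47, 3.29, 3.47 and 3.01 in the PBS horns and at 3.59, 3.72 and 4.19 in the HG horns, with a fitted log2 fold of 0.52 (SE 0.17). Slc25a28, the mitochondrial iron carrier mitoferrin-2, was at 5.31, 5.06, 4.70, 5.06 and 5.15 in the PBS horns and at 5.41, 5.43 and 5.51 in the HG horns. The 6 HG horns of Slc25a28 thus lay within 0.10 of each other. Plekha4, a phosphoinositide-binding regulator of WNT signalling, had a fold of 1.13 (SE 0.32), or 0.86 without PBS horns 8 and 9. Mpv17l, a protein of peroxisomes and mitochondria, had a fold of 0.67 (SE 0.25), or 0.39 without those horns. Itfg2, a subunit of the KICSTOR complex of nutrient sensing, and Zc2hc1a, a zinc finger gene, each had a fold of 0.25 (SE 0.12 and 0.14).

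Among the lower genes, Slc15a4, a lysosomal transporter of histidine and peptides, was at 4.87, 5.00, 5.13, 5.05 and 4.94 in the PBS horns and at 4.40, 4.60 and 4.74 in the HG horns. Its fitted log2 fold was -0.40 (SE 0.11), and it stayed between -0.45 and -0.36 when each horn was left out, at -0.36 without PBS horns 8 and 9 and at -0.36 with the stroma score as a covariate. Spast, the microtubule-severing enzyme spastin, was at 6.14, 6.31, 6.31, 6.28 and 6.24 in the PBS horns and at 5.83, 5.93 and 6.08 in the HG horns, with a fold of -0.30 (SE 0.09). Lrrk1, a kinase, had a fold of -0.40 (SE 0.13). Itgb5, an integrin subunit that binds vitronectin, had a fold of -0.67 (SE 0.20) and Tmub1, a ubiquitin-like membrane protein, of -0.56 (SE 0.18). Pcdhgc4, a protocadherin, had a fold of -1.23 (SE 0.35), and since it shares exons with its cluster its counts are uncertain.

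The genes with the smallest p included several that a few horns carried. Nol3, an apoptosis repressor, was at -0.86, -0.99, -0.82, 0.07 and -1.42 in the PBS horns and at -0.29, 0.70 and 2.03 in the HG horns, with a fitted log2 fold of 2.03 (SE 0.54). Abcb9, a lysosomal peptide transporter, had a fold of 1.50 (SE 0.42) with 5 HG horns above every saline horn. Rab34, a small GTPase of cilia, had a fold of 1.36 (SE 0.40), also with 5. Ptx3, a pentraxin of innate immunity, had a fold of 5.07 (SE 1.48), and was at 5.96 in HG horn 12 and below 0.20 in every saline horn. The fold of Ptx3 was 2.76 without HG horn 12. Wfikkn2, a secreted binder of the growth factor GDF11, had a fold of 1.51 (SE 0.45), and Cep85, a centrosome protein, of 0.82 (SE 0.25). Reads were few for several of these genes. In PBS horns 7 to 11 Nol3 had 6, 5, 5, 10 and 3 reads and Wfikkn2 6, 5, 9, 10 and 6. Abcb9 had 14, 12, 7, 9 and 10 reads there, and 14 in HG horn 17, which counts as above every saline horn.

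On the lower side, Ppia, cyclophilin A, had a fold of -1.33 (SE 0.35) and was at 4.29, 5.59, 6.34, 6.39 and 5.58 in the PBS horns and at 3.91, 4.43 and 5.11 in the HG horns. Ppia has many near-identical copies in the genome, so its counts depend on how shared reads were assigned and are uncertain. Hs6st1, which sulfates heparan chains, had a fold of -0.65 (SE 0.19), and Zfpm1, a GATA cofactor, of -0.59 (SE 0.17). Banp, a nuclear matrix protein that binds CpG promoters, had a fold of -0.39 (SE 0.11), and Ctu1, a tRNA thiolation enzyme, of -0.52 (SE 0.15). For each of Banp, Zfpm1, Ctu1 and Hs6st1, 5 of 6 HG horns lay below every saline horn. HG horn 15 was the exception for these 4 genes.

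Cytoskeletal and stress lists lay close to the median of all genes. Actin dynamics genes had a median of 0.16, motor proteins -0.16 and heat shock genes 0.08. Cfl2, a muscle-type cofilin, had a fold of 0.53 (SE 0.17), with 5 HG horns above every saline horn. Dync1h1, the heavy chain of dynein, had a fold of -0.48 (SE 0.16), and Hspb1, a small heat shock protein, of -0.36 (SE 0.12). Ion channel genes, in contrast, had 10 of 10 folds above 0 with a median of 1.49, and 0.89 without PBS horns 8 and 9. Kcnd3, a potassium channel of muscle, had a fold of 2.56 (SE 0.91), or 1.17 with the stroma score as a covariate.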

How the data were processed

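RNA from 23 endometrial horns was sequenced, and 6 HG and 5 PBS libraries were compared. The authors deposited raw read counts per gene for 18682 features. Per the submitters' processing notes, HISAT2 2.2.1 and featureCounts 2.0.3 were used on build GRCm39; the sources used here do not give their settings, annotation or strand option. Of the features, 18341 matched a symbol. edgeR 4.0.16 in R 4.3.3 (TMM factors, filterByExpr by group, quasi-likelihood test, Benjamini-Hochberg adjustment at 0.05) tested 16617 and removed 2065. The standard error (SE) is the log2 fold over the root of the F statistic. Because folds are fitted to mean counts, they can differ in size and sign from a difference of mean log2 CPM, which was computed from the deposited counts. Alternatives were RLE factors, no filter, limma 3.58.1, DESeq2 1.42.0, all 4 groups, score covariates and leaving out horns. The script was tested on simulated data.

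Named genes were the 8 higher and 8 lower by p, the 6 higher and 6 lower by widest gap between groups (mean of at least 1 CPM), up to 4 members of each of 51 lists by p, and 25 fixed genes. Members and lists were chosen with earlier results of these data known.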

Additional observations from a re-analysis of the deposited data

Results flagged for a closer look

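Horns were set apart where the gap from the highest or the lowest horn of a group to its nearest neighbour was large against the group's range (Dixon's 95% value). Chance alone marks about 1 in 20 groups, and 23 of the 292 group values tested were marked, so single cases carry little weight. All values are log2 CPM or list scores on that scale.

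In PBS horn 7, the adipocyte score was 5.78 (next 0.43), Adipoq 5.50 (next -1.42), and the glucocorticoid-type target score 5.17 (next 4.07). In PBS horn 8, Igfbp4 was low at 5.14 (next 7.48), and the motor protein score at 7.82, Pcdhgc4 at 1.47 and Lrrk1 at 6.78 were high. In PBS horn 9, the heat shock score was high at 7.81 and Zc2hc1a low at 3.62. In PBS horn 10, the cholesterol synthesis score was high at 6.33 (next 5.26), as was the peptidyl-prolyl isomerase score at 6.67, and Mmp14 at 8.11 and Lgr5 at 4.32 (next 6.22) were low.

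In HG horn 12, Irs2 was at 7.17 (next 2.84) and Cxcl10 at 6.05 (next 3.42), and Nr1d1, described further on, at 7.62 (next 5.28). In HG horn 14, Gin1 was at 4.19 and Slc25a28 at 5.51. In HG horn 15, the motile cilia score was low at 2.12, the basement membrane score at 5.52, the FGF, HGF and PDGF score at 3.36 and Tgfb1 at 3.40, and Zfpm1 was high at 5.42.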

How the results depend on the processing

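No paired analysis was possible because the titles number each library once, so no replicate number is shared between the groups and no block could be fitted. The count of genes at an adjusted p under 0.05 was 0 in every alternative run. The smallest adjusted p was 0.113 with DESeq2, 0.276 with limma and quality weights, 0.728 with limma, 0.991 with all 4 groups in 1 fit, and 0.524 to 0.995 when each horn was left out. Genes at an unadjusted p under 0.05 numbered 647, and 2849 with quality weights, 1076 with DESeq2, 394 with the smooth muscle score as a covariate, 265 without PBS horn 9, 1579 without PBS horn 10 and 1494 without HG horn 15. Without PBS horns 8 and 9 there were 164 (0.944%), and 140 (0.843%) with the stroma score as a covariate, both added after the data had been seen. Genes whose groups did not overlap numbered 27, with a range of 35 to 226 when a horn was left out (35 without PBS horn 9, 226 without HG horn 15) and 108 without PBS horns 8 and 9; fewer horns make separation easier.

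Folds that changed sign were those of Epcam (0.12, epithelium score as covariate), Col1a1 (-0.13, stroma score), Pecam1 (-0.25, without PBS horns 8 and 9), Acta2 (-0.23, muscle score), Tgfb1 (-0.23, stroma score, and -0.20, without PBS horns 8 and 9), Vegfa (-0.04, quality weights), Il1b (0.21, limma), Gzmb (-0.29) and Fkbp5 (-0.17, both epithelium score), and Mki67 (-0.30, muscle score). Epcam and Acta2 are members of the scores that served as their covariates, so their values there are fixed in part and are no check. Tsc22d3 was at 0.12 with the muscle score, from -0.44 (without HG horn 14) to 0.13 (without PBS horn 8) when a horn was left out, and 0.25 without PBS horns 8 and 9. Ihh was at 1.29 with the muscle score, 0.92 with the stroma score, from -0.87 (without HG horn 14) to 0.82 (without PBS horn 8) when a horn was left out, 0.05 without HG horn 13 or 16, and 1.45 without PBS horns 8 and 9. The median of the neutrophil list, -1.03, was 0.12 with limma. The cause was not tested. Genes under 1 CPM, common among vessel and muscle genes in PBS horns 8 and 9, are the least precise.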

Other observations

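A further set of genes was chosen after its values had been seen and carries no test. It holds the targets of the amino acid response, in which the kinase GCN2 senses uncharged tRNA and raises translation of ATF4. Impact, an inhibitor of GCN2 and among the 8 higher genes with the smallest p, was at 4.76, 4.73, 4.00, 4.70 and 4.45 in the PBS horns and at 4.93, 5.29, 5.53, 4.69, 5.52 and 5.48 in HG horns 12 to 17. Its fitted log2 fold was 0.72 (SE 0.20), with HG horn 15 the exception. Asns, asparagine synthetase, was at 4.23, 4.59, 4.82, 3.85 and 4.16 in the PBS horns and at 5.43, 5.30, 5.83, 4.39, 4.79 and 4.95 in the HG horns, so that 4 HG horns lay above every saline horn. The fold of Asns was 0.82 (SE 0.27), 1.10 without PBS horns 8 and 9 and 0.96 with the stroma score as a covariate. Phgdh, of serine synthesis, had a fold of 1.12 (SE 0.41) and Atf4 of 0.58 (SE 0.26). Of 16 genes of this response 10 had a fold above 0, with a median of 0.50, and Psat1, which acts in the same synthesis pathway as Phgdh, had a fold of -0.04, so the set did not move as a whole.

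The 150 bases before the start of Asns (GRCm38.p6, chr6:7693210-7693359, minus strand, RefSeq) hold the amino acid response element TGATGNAA, searched on both strands and shown in capitals, with its first base 23 before the start.
Asns: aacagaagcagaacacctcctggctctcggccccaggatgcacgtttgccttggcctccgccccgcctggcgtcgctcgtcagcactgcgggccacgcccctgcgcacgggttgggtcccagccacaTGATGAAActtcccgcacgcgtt
The element was found in the windows of 4.51% of genes, so a match is not rare.

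Core clock genes, also chosen after their values had been seen, had 16 of 17 folds above 0 with a median of 0.43. Nr1d1, the clock repressor REV-ERB alpha, was at 4.46, 2.48, 3.76, 3.56 and 3.27 in the PBS horns and at 4.34, 4.58 and 7.62 in the HG horns, with a fold of 2.13 (SE 0.69), or 1.04 without HG horn 12. 5 HG horns lay above every saline horn and HG horn 12 was the highest. The labels give no hour of collection, and its part was not tested.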
